A study of Mus musculus with 16 samples.

Results

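Chemokine and chemokine receptor transcripts were measured in the kidneys of mice given FAN or vehicle under 2 feeding regimens. Members were the rows of the deposited count table whose symbol is Ccl, Cxcl, Ccr, Cxcr, Xcl, Xcr or Ackr followed by a number and at most 1 letter, together with Cx3cl1 and Cx3cr1. The rule used symbols only and found 61 of 52338 genes, namely 39 ligands and 22 receptors. The ligands were 24 CC, 13 CXC and 2 CX3C or XC ligands, and the receptors were 10 CC, 8 CXC, CX3C or XC and 4 atypical receptors. Of the 61 members, 47 had enough counts to be tested.

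The 4 groups were FAN with time-restricted feeding, FAN with ad libitum feeding, vehicle with time-restricted feeding and vehicle with ad libitum feeding, each with 4 libraries of whole kidney. All mice carried the genotype label C57BL6, all received a high-fat diet, and kidneys were taken on day 15 after treatment. FAN is not spelled out in the labels, which give no dose, age or feeding hours, while the name of every library's column contains folic. Nothing in the labels says whether libraries of a group came from separate animals, so p-values measure the spread between these libraries. FAN libraries are named by the number in their column, as in FAN ad libitum 6.

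Chemokines are small secreted or membrane-bound proteins that draw leukocytes along concentration gradients by acting on G protein-coupled receptors. CC ligands act mainly on monocytes, macrophages, dendritic cells and T cells, and the CXC ligands that bind Cxcr2 draw neutrophils. Atypical receptors bind chemokines without classical G protein signalling and clear or redistribute them. In the kidney, injured tubule cells, endothelium and resident macrophages are known sources of chemokines, and infiltrating monocytes carry Ccr2.

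Total counts ranged from 12450812 to 33976660, with the lowest total in FAN time-restricted 12, and 0 counts in a library is compatible with up to 0.0883 to 0.241 CPM (counts scaled to the library total), counting error only. Mitochondrial transcripts held 24.9 ± 2.40% of the counts in FAN time-restricted, 10.3 ± 3.83% in FAN ad libitum, 19.8 ± 1.35% in vehicle time-restricted and 20.3 ± 2.32% in vehicle ad libitum libraries (SD, n = 4 each). The S numbers in the column names, whose meaning is not stated, form 3 runs: the first holds libraries of all 4 groups (vehicle 1 and 2 of both regimens, FAN ad libitum 6 and 7, FAN time-restricted 6), the second vehicle libraries and the third FAN libraries. The FAN ad libitum libraries stood apart along these runs: 6 and 7, from the first run, differed from 10 and 12, from the third, with chi-square values per gene from 146 upwards, against 20.7 and 26.7 within these pairs. Within the first run, with its own count filter, 33 members were called higher in FAN kidneys with ad libitum feeding. They included Ackr1, which was not tested over all libraries. Of all 19679 genes tested in that run 9442 were called, 4636 of them higher. FAN time-restricted has 1 library in the first run. Values within a run are given beside each call described here that was lost there and beside several others, and the part of the run in them was not tested unless a value is given. Defining kidney genes were present, with summed proximal tubule markers at 8223 to 9774 CPM in FAN time-restricted, 2199 to 4166 CPM in FAN ad libitum, 15971 to 18172 CPM in vehicle time-restricted and 14952 to 17324 CPM in vehicle ad libitum libraries.

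FAN kidneys held more transcripts of most chemokine ligands and receptors than vehicle kidneys under both feeding regimens. With ad libitum feeding 37 of the 47 tested members were higher in FAN kidneys, 4 were lower and 6 did not pass the test, where 32.1% of all 17731 genes were higher and 28.6% were lower (60.7% in all). The median log2 change of the members was 2.40, against 0.06 over all genes tested. With time-restricted feeding 36 members were higher, 1 was lower and 10 did not pass, against a background of 24.5% higher and 19% lower (43.5% in all). The median there was 2.85, or 2.84 with the 2 members that had no counts in vehicle libraries set at their lower bound, against 0.05 over all genes. With library size as the only scaling 40 were higher and none lower with ad libitum feeding, while the median of all genes was 0.76. That scaling called 12893 of the 17731 genes, 10823 of them higher. Both contrasts are separate comparisons with their own vehicle libraries, and calls are Benjamini-Hochberg adjusted p under 0.05 in edgeR's quasi-likelihood test.

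Of the members, 35 were higher in FAN kidneys under both regimens. Ccl4 and Ccr9 were higher only in the ad libitum contrast and Ackr2 only in the time-restricted one, and Ackr3, Ackr4, Ccl11, Ccl28 and Cxcl13 were called in neither. The 4 FAN and 4 vehicle libraries did not overlap for 37 members higher and 2 lower with ad libitum feeding (29% and 25.9% of all genes), and for 33 higher and 1 lower with time-restricted feeding (22.4% and 17.9%). Because a gene that is low in vehicle kidneys enters the test only when it is high in FAN kidneys, the 26 members that passed the count filter in vehicle libraries alone were also counted. Among these 26, 18 were higher and 4 lower with ad libitum feeding, and 17 were higher and 1 lower with time-restricted feeding, with median log2 changes of 1.94 and 1.96. The share of all genes passing the same filter was not computed, so these counts have no matched background. Whole-kidney RNA cannot tell more cells of a type from more RNA per cell.

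**Figure D1:**
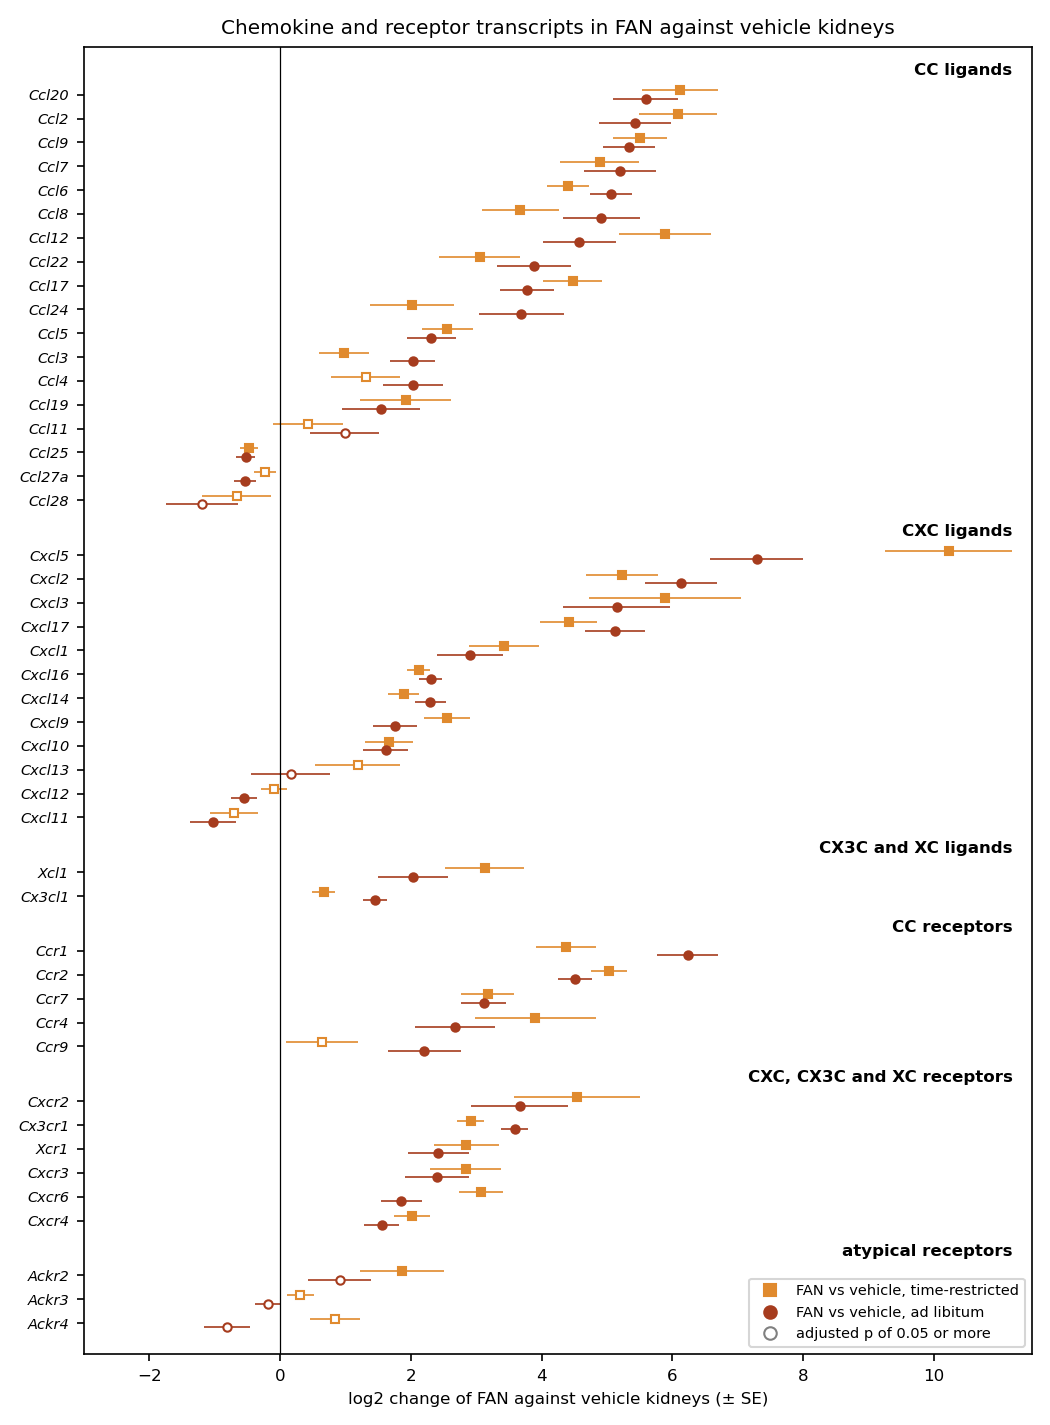
Log2 change of FAN against vehicle kidneys (x axis, points with bars of ± SE) for the tested members described here (y axis, grouped by class), with orange squares for time-restricted and red circles for ad libitum feeding, and open symbols where the adjusted p was 0.05 or more. Most points lie right of 0, Ccl25 lies left of it in both contrasts, and with library size as the only scaling the ad libitum changes of Ccl25, Ccl27a and Cxcl12 turn positive (0.17, 0.16 and 0.14). The fitted changes of Cxcl5 and Cxcl3 under time-restricted feeding rest on vehicle libraries without counts and do not measure the size of the change.

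The same contrasts carried more transcripts of several sets of leukocyte markers, though not of B and plasma cell markers as called. Summed over 14 macrophage and monocyte markers, the level was 979 to 1948 CPM in FAN time-restricted, 2009 to 3073 CPM in FAN ad libitum, 140.0 to 199.9 CPM in vehicle time-restricted and 149 to 285 CPM in vehicle ad libitum libraries. All 14 were higher in FAN kidneys with ad libitum and 13 with time-restricted feeding, and no marker was at 0 throughout. The 8 neutrophil markers summed to 6.505 to 19.1 CPM in FAN time-restricted and 19.0 to 29.9 CPM in FAN ad libitum libraries, against 0.847 to 2.20 CPM in vehicle time-restricted and 1.78 to 4.35 CPM in vehicle ad libitum libraries. The 5 neutrophil markers that could be tested were all higher in both contrasts. The 15 T and NK cell markers summed to 32.5 to 54.3 CPM in FAN time-restricted and 33.2 to 54.4 CPM in FAN ad libitum libraries, against 7.42 to 8.17 CPM in vehicle time-restricted and 5.37 to 14.3 CPM in vehicle ad libitum libraries. Of the 14 tested, 14 were higher with time-restricted and 13 with ad libitum feeding. Of 7 tested B and plasma cell markers, 0 were called with time-restricted feeding, and 0 were higher and 1 lower with ad libitum feeding. The part of these cells in the chemokine changes was not tested.

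Among the CC ligands, 14 of 18 tested were higher and 2 lower in FAN kidneys with ad libitum feeding, and 13 were higher and 1 lower with time-restricted feeding. Over all genes 32.1% were higher with ad libitum and 24.5% with time-restricted feeding. Ccl2, Ccl4, Ccl7, Ccl8, Ccl12, Ccl19, Ccl20, Ccl22 and Ccl24 did not pass the count filter in vehicle libraries alone. Ccl2, the main attractant of Ccr2-bearing monocytes, had 20.9, 29.0, 23.5 and 15.2 CPM in FAN time-restricted and 19.6, 11.22, 32.5 and 24.6 CPM in FAN ad libitum libraries. In vehicle kidneys it had 0.339, 0.532, 0 and 0.407 CPM in vehicle time-restricted and 0.403, 1.05, 0.384 and 0 CPM in vehicle ad libitum libraries. Every FAN library lay above every vehicle library, at 11.22 CPM or more against 1.05 CPM or less. The log2 change was 6.09 ± 0.59 (adjusted p = 8.34e-07) with time-restricted and 5.43 ± 0.55 (adjusted p = 3.51e-07) with ad libitum feeding (± SE throughout). Within the first run alone it was 5.49 and 4.37.

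Ccl2 (ENSMUSG00000035385, chr11:82035571-82037453, forward strand) opens a cluster of CC ligand genes on chromosome 11 that spans chr11:82035571-82305690 in GENCODE M21 on GRCm38 (mm10). Its tested neighbours Ccl7, Ccl12 and Ccl8 were also higher in FAN kidneys under both regimens, with log2 changes between 3.67 and 5.89 with time-restricted and between 4.58 and 5.20 with ad libitum feeding. Ccl7 and, in mice, Ccl12 bind Ccr2 as Ccl2 does, and mouse Ccl8 acts through Ccr8. Ccl11, an eosinophil attractant in the same cluster, was not called, with log2 changes of 0.43 ± 0.54 (adjusted p = 0.547) with time-restricted and 0.99 ± 0.53 (adjusted p = 0.113) with ad libitum feeding. Its vehicle time-restricted libraries alone spread from 0.163 to 2.09 CPM.

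A second cluster on chromosome 11, chr11:83525778-83664683, holds Ccl5, Ccl9, Ccl6, Ccl3 and Ccl4. Ccl6 and Ccl9, which are known from rodents and act through Ccr1, had the larger rises of the cluster. Ccl6 (ENSMUSG00000018927) had 52.2, 69.2, 72.5 and 33.2 CPM in FAN time-restricted and 60.7, 66.5, 132 and 127 CPM in FAN ad libitum libraries. It had 2.54, 2.73, 3.60 and 1.63 CPM in vehicle time-restricted and 2.99, 3.08, 2.59 and 2.78 CPM in vehicle ad libitum libraries, so that the treatments did not overlap. Its log2 change was 4.41 ± 0.32 (adjusted p = 2.13e-08) with time-restricted and 5.07 ± 0.32 (adjusted p = 9.37e-10) with ad libitum feeding. Ccl9 (ENSMUSG00000019122) had 58.4, 78.5, 79.8 and 37.7 CPM in FAN time-restricted and 48.7, 49.4, 110.0 and 125 CPM in FAN ad libitum libraries, against 2.12, 1.06, 1.62 and 0.570 CPM in vehicle time-restricted and 2.12, 2.52, 1.58 and 1.89 CPM in vehicle ad libitum libraries. The lowest FAN library of Ccl9, at 37.7 CPM, was above the highest vehicle library, at 2.52 CPM, and its log2 changes were 5.51 ± 0.41 (adjusted p = 5.5e-08) with time-restricted and 5.34 ± 0.40 (adjusted p = 9.93e-09) with ad libitum feeding. For both genes FAN ad libitum 10 and 12 were higher than 6 and 7, and with the first run alone the ad libitum log2 changes were 4.35 for Ccl6 and 4.36 for Ccl9.

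Ccl3, a ligand of Ccr1, and Ccl4, both inflammatory chemokines, had smaller changes. Ccl3 (ENSMUSG00000000982) had 0.700, 0.831, 1.02 and 0.929 CPM in FAN time-restricted and 2.81, 2.28, 1.58 and 2.42 CPM in FAN ad libitum libraries, against 0.423, 0.638, 0.135 and 0.570 CPM in vehicle time-restricted and 0.672, 0.386, 0.431 and 0.757 CPM in vehicle ad libitum libraries. The FAN ad libitum libraries were the highest of the 4 groups, and the FAN time-restricted libraries, from 0.700 CPM, lay just above the vehicle time-restricted ones, which reached 0.638 CPM. Its log2 change was 2.03 ± 0.35 (adjusted p = 6.03e-05) with ad libitum and 0.98 ± 0.38 (adjusted p = 0.0463) with time-restricted feeding, and the second call was lost without any 1 of FAN time-restricted 10, 11 or 12 or vehicle time-restricted 1 or 3 (adjusted p 0.0254 to 0.138 over the 8 fits). The time-restricted change of Ccl3 within the first run was 0.32 (adjusted p = 0.7103). Ccl4 (ENSMUSG00000018930) had 0.661, 0.525, 0.904 and 0.186 CPM in FAN time-restricted and 1.68, 1.149, 1.30 and 2.06 CPM in FAN ad libitum libraries, against 0.296, 0.319, 0.0900 and 0.244 CPM in vehicle time-restricted and 0.470, 0.666, 0.144 and 0.126 CPM in vehicle ad libitum libraries. It was higher in FAN kidneys with ad libitum feeding, by 2.03 ± 0.46 (adjusted p = 0.000953) or 1.27 within the first run, and overlapped between treatments with time-restricted feeding, at 1.31 ± 0.53 (adjusted p = 0.0559). Ccl5, which draws T cells and monocytes, was higher in both, at 2.56 with time-restricted and 2.31 with ad libitum feeding.

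Ccl20, the ligand of Ccr6, was close to absent from vehicle kidneys. It had 2.96, 2.36, 3.97 and 1.58 CPM in FAN time-restricted and 3.498, 2.63, 4.77 and 4.31 CPM in FAN ad libitum libraries, against 0.0423, 0, 0.0450 and 0.0815 CPM in vehicle time-restricted and 0.0336, 0.0701, 0.192 and 0 CPM in vehicle ad libitum libraries. Summed over the 4 libraries, FAN time-restricted kidneys held 248 counts and vehicle time-restricted kidneys 3, a ratio of 84.2 with a 95% counting interval of 28.5 to 411.1. The fitted log2 change with ad libitum feeding was 5.59 ± 0.50 (adjusted p = 3.03e-08). Ccl17 and Ccl22, both ligands of Ccr4, were higher under both regimens, Ccl17 by 4.48 and 3.78 and Ccl22 by 3.06 and 3.88 with time-restricted and ad libitum feeding. Ccl24, which binds Ccr3, rose by 2.02 and 3.69, and its time-restricted call was lost without vehicle time-restricted 1 or 3. Ccl19, a Ccr7 ligand, rose by 1.92 and 1.54. Its ad libitum call was lost when FAN ad libitum 12 was left out, or vehicle ad libitum 1 or 3, and its time-restricted call without FAN time-restricted 6 or 11 or vehicle time-restricted 1, 3 or 4. The time-restricted change of Ccl24 within the first run was 1.68 (adjusted p = 0.224). The changes of Ccl19 there were 1.40 (adjusted p = 0.239) and 1.01 (adjusted p = 0.201) with time-restricted and ad libitum feeding, without a call.

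The CC ligands Ccl25 and Ccl27a, known from epithelia, were lower in FAN kidneys in at least 1 contrast. Ccl25, best known as the Ccr9 ligand of thymus and small intestine, had 10.5, 8.66, 8.37 and 6.97 CPM in FAN time-restricted and 8.17, 7.45, 10.01 and 8.46 CPM in FAN ad libitum libraries, against 11.9, 12.2, 11.3 and 13.0 CPM in vehicle time-restricted and 12.5, 10.6, 12.7 and 13.2 CPM in vehicle ad libitum libraries. No FAN library reached the lowest vehicle library of its own regimen, and the log2 change was −0.47 ± 0.14 (adjusted p = 0.0126) with time-restricted and −0.53 ± 0.14 (adjusted p = 0.00364) with ad libitum feeding, although with library size as the only scaling the ad libitum change turned to 0.17. The time-restricted call of Ccl25 was lost within the first run, at −0.26 (adjusted p = 0.406), and with the run as a covariate, at −0.41 (adjusted p = 0.135). Ccl27a, a Ccr10 ligand first known from skin, had 9.46, 11.9, 13.4 and 10.4 CPM in FAN time-restricted and 7.58, 7.49, 12.02 and 10.8 CPM in FAN ad libitum libraries, against 12.1, 14.7, 14.9 and 11.1 CPM in vehicle time-restricted and 12.8, 13.5, 12.8 and 15.3 CPM in vehicle ad libitum libraries. Its FAN ad libitum libraries, at 12.02 CPM or less, lay below the vehicle ad libitum libraries, at 12.8 CPM or more, with a log2 change of −0.53 ± 0.17 (adjusted p = 0.0115) that was −0.85 within the first run and turned to 0.16 with library size alone. With time-restricted feeding the groups overlapped, at −0.23 ± 0.17 (adjusted p = 0.302). Ccl28, a mucosal epithelial ligand of Ccr10 and Ccr3, was called in neither contrast, at −0.66 ± 0.53 (adjusted p = 0.339) and −1.19 ± 0.54 (adjusted p = 0.0726) with time-restricted and ad libitum feeding.

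Among the CXC ligands, 9 of 12 tested were higher in both contrasts, and 2 were lower with ad libitum feeding. Over all genes 32.1% were higher with ad libitum and 24.5% with time-restricted feeding. Cxcl2, Cxcl3, Cxcl5, Cxcl13 and Cxcl17 did not pass the count filter in vehicle libraries alone. The neutrophil attractants Cxcl1, Cxcl2, Cxcl3 and Cxcl5, which share the receptor Cxcr2, lie together at chr5:90759360-90905938 and were all higher under both regimens. Cxcl5 (ENSMUSG00000029371, chr5:90759360-90761624) had 10.7, 5.77, 3.93 and 1.67 CPM in FAN time-restricted and 4.82, 6.58, 3.94 and 7.09 CPM in FAN ad libitum libraries. All 4 vehicle time-restricted libraries had 0 counts, and vehicle ad libitum libraries had 0.0336, 0.0701, 0 and 0 CPM. Against 3 counts per vehicle library, a level of 0.153 CPM, Cxcl5 was at least 36.0-fold higher in FAN time-restricted kidneys, from a sum of 525 counts. In the ad libitum contrast 926 counts in FAN stood against 3 in vehicle kidneys, a ratio of 183 with a 95% counting interval of 62.3 to 887.

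Cxcl2 (ENSMUSG00000058427) had 7.04, 7.61, 6.13 and 1.58 CPM in FAN time-restricted and 14.7, 7.38, 7.53 and 7.81 CPM in FAN ad libitum libraries, against 0.127, 0.213, 0.180 and 0 CPM in vehicle time-restricted and 0.101, 0.0351, 0.240 and 0.189 CPM in vehicle ad libitum libraries. FAN ad libitum 6 was far above the other 3 libraries of its group, FAN time-restricted 12 was the lowest FAN library, and no FAN library overlapped the vehicle libraries. The log2 change was 5.23 ± 0.55 (adjusted p = 8.7e-07) with time-restricted and 6.13 ± 0.55 (adjusted p = 3.73e-08) with ad libitum feeding. Cxcl3 had 23 counts over the FAN time-restricted libraries and none in vehicle time-restricted ones, at least 1.80-fold higher, and 90 against 1 with ad libitum feeding. Cxcl1, named after its values were seen, had 43.2, 25.5, 22.6 and 6.23 CPM in FAN time-restricted and 35.4, 19.0, 19.1 and 19.0 CPM in FAN ad libitum libraries, against 3.51, 1.59, 1.35 and 2.85 CPM in vehicle time-restricted and 2.39, 3.12, 5.42 and 1.32 CPM in vehicle ad libitum libraries. The lowest FAN library of Cxcl1, FAN time-restricted 12 at 6.23 CPM, was close to the highest vehicle library, vehicle ad libitum 3 at 5.42 CPM. Its log2 changes were 3.42 ± 0.53 (adjusted p = 0.000114) with time-restricted and 2.91 ± 0.51 (adjusted p = 0.000154) with ad libitum feeding.

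The 250 bases before the RefSeq start of 5 ligand genes (RefSeq, GRCm38.p6) are shown because 4 of them rose in FAN kidneys and hold a match to the NF-kappaB consensus, while Cxcl12 did not rise and holds none. NF-kappaB is the transcription factor through which tumour necrosis factor and interleukin-1 are known to induce many chemokine genes. Capitals mark matches on either strand to that consensus, overlapping matches being joined, and in Cxcl10 the first capitals mark GAAA-NN-GAAA, a pattern bound by interferon regulatory factors. The windows are chr5:90890995-90891244 (forward strand) for Cxcl1, chr5:90903649-90903898 (forward strand) for Cxcl2, chr1:83116516-83116765 (forward strand) for Ccl20, chr5:92348890-92349139 (reverse strand) for Cxcl10 and chr6:117168285-117168534 (forward strand) for Cxcl12, each 5′ to 3′ towards the start.
Cxcl1: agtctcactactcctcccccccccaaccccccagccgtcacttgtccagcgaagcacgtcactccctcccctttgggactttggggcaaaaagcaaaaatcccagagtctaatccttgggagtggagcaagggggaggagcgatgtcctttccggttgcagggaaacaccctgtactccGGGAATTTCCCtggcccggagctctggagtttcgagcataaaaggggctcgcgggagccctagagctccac
Cxcl2: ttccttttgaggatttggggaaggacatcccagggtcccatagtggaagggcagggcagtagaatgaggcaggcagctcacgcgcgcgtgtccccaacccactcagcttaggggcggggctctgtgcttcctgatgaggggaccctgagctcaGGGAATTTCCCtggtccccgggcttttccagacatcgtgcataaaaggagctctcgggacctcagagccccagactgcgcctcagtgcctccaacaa
Ccl20: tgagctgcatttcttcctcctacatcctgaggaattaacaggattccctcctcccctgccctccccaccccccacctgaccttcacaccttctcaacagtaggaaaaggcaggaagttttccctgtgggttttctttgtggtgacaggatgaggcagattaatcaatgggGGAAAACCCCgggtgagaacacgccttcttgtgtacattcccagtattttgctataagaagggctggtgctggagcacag
Cxcl10: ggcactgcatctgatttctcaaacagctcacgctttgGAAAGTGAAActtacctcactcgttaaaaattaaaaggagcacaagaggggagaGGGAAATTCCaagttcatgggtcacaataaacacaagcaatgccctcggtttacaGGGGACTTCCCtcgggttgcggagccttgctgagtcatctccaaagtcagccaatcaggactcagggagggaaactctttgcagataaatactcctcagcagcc
Cxcl12: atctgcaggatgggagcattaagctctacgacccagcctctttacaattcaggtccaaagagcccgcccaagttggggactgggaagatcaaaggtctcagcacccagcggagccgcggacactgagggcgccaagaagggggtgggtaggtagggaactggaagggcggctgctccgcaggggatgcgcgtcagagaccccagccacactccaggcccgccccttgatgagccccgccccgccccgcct

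In Cxcl1 the matches lay 71 to 61 bases before the start and in Cxcl2 97 to 87 bases before it, with the same bases in both genes. In Ccl20 the match lay 80 to 71 bases before the start, and Cxcl10 held matches at 159 to 150 and at 104 to 94 bases before its start. The promoter table held 46 of the 61 members by symbol, not including Ccl2 or Cxcl5. A match to the NF-kappaB consensus was found in 11 of these 46 (23.9%) and in 8.23% of the 27025 genes of the table. It was found in 7 of the 26 members higher in FAN kidneys under both regimens (26.9%), namely Ccl20, Ccl9, Ccr1, Cxcl1, Cxcl10, Cxcl2 and Cxcl3, and in 4 of the 20 others (20%). GAAA-NN-GAAA was found in 3 of 46 members (6.52%), Ccl19, Cxcl10 and Cxcl14, and in 3.46% of all genes. A match is a description of the letters and not evidence of binding.

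Cxcl16, a membrane-anchored ligand of Cxcr6 that is also a scavenger receptor for oxidised lipoprotein, had 134, 149.9, 172 and 111 CPM in FAN time-restricted and 175, 153, 171 and 220.2 CPM in FAN ad libitum libraries. It had 32.4, 30.7, 32.2 and 35.3 CPM in vehicle time-restricted and 41.3, 45.9, 31.2 and 26.7 CPM in vehicle ad libitum libraries. The lowest FAN library, at 111 CPM, was above the highest vehicle library, at 45.9 CPM, and the log2 change was 2.12 ± 0.17 (adjusted p = 5.03e-08) with time-restricted and 2.30 ± 0.17 (adjusted p = 3.63e-09) with ad libitum feeding. Cxcl14, an epithelial chemokine that attracts monocytes and dendritic cells, had 28.9, 30.5, 38.2 and 23.6 CPM in FAN time-restricted and 49.3, 58.1, 38.0 and 64.6 CPM in FAN ad libitum libraries, against 9.53, 8.05, 9.13 and 5.78 CPM in vehicle time-restricted and 9.88, 16.4, 8.68 and 7.44 CPM in vehicle ad libitum libraries. Its FAN libraries also all lay above its vehicle libraries, by 1.89 ± 0.24 (adjusted p = 5.95e-06) with time-restricted and 2.30 ± 0.23 (adjusted p = 1.74e-07) with ad libitum feeding. Cxcl17, a mucosal chemokine, rose by 4.42 and 5.12 on the log2 scale with time-restricted and ad libitum feeding.

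The Cxcr3 ligands Cxcl9, Cxcl10 and Cxcl11, known as interferon-induced, lie next to each other at chr5:92321347-92365485, and the first 2 were higher in FAN kidneys under both regimens. Cxcl9 rose by 2.56 ± 0.35 (adjusted p = 1.77e-05) with time-restricted and 1.76 ± 0.34 (adjusted p = 0.000229) with ad libitum feeding, the second at 0.97 within the first run, and Cxcl10 by 1.67 and 1.61. Cxcl11, at under 1.5 CPM throughout, had 0.817, 0.437, 0.629 and 0.558 CPM in FAN time-restricted and 0.419, 0.349, 0.788 and 0.593 CPM in FAN ad libitum libraries, against 0.677, 1.38, 1.17 and 0.733 CPM in vehicle time-restricted and 0.672, 1.47, 1.20 and 0.946 CPM in vehicle ad libitum libraries. The treatments overlapped in both contrasts, and Cxcl11 was called lower with ad libitum feeding, at −1.03 ± 0.35 (adjusted p = 0.0180), a call lost when vehicle ad libitum 2 or FAN ad libitum 6 or 7 was left out, and not with time-restricted feeding, at −0.70 ± 0.37 (adjusted p = 0.135). Its ad libitum change within the first run was −1.51 (adjusted p = 0.0517).

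Cxcl12, the constitutive ligand of Cxcr4 and Ackr3 made by stromal, endothelial and epithelial cells, had 131, 122, 98.98 and 172 CPM in FAN time-restricted and 84.8, 121, 118 and 90.4 CPM in FAN ad libitum libraries. It had 104, 139, 151 and 160.5 CPM in vehicle time-restricted and 128, 214, 119.8 and 147 CPM in vehicle ad libitum libraries, so all 4 groups overlapped. The log2 change was −0.56 ± 0.20 (adjusted p = 0.0222) with ad libitum feeding, turning to 0.14 with library size as the only scaling, and −0.09 ± 0.20 (adjusted p = 0.752) with time-restricted feeding. The ad libitum call of Cxcl12 was lost when vehicle ad libitum 2 or FAN ad libitum 6 or 12 was left out (adjusted p 0.0122 to 0.121 over the 8 fits), within the first run (−0.77, adjusted p = 0.0648) and with the run as a covariate (−0.56, adjusted p = 0.0754). Cxcl13, the B cell attractant, was below 1.1 CPM in every library and was not called, at 1.19 ± 0.65 (adjusted p = 0.151) with time-restricted and 0.16 ± 0.60 (adjusted p = 0.830) with ad libitum feeding.

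Cx3cl1, or fractalkine, a membrane-bound ligand that holds and draws Cx3cr1-bearing monocytes and macrophages, had 55.6, 61.5, 80.1 and 61.6 CPM in FAN time-restricted and 160.4, 153, 94.97 and 113 CPM in FAN ad libitum libraries. It had 37.8, 49.7, 44.6 and 30.6 CPM in vehicle time-restricted and 42.1, 56.0, 43.8 and 48.7 CPM in vehicle ad libitum libraries. The FAN ad libitum libraries were the highest, and the FAN time-restricted libraries, from 55.6 CPM, stood just above the vehicle time-restricted ones, which reached 49.7 CPM. The log2 change was 1.45 ± 0.18 (adjusted p = 1.54e-06) with ad libitum and 0.67 ± 0.18 (adjusted p = 0.00549) with time-restricted feeding, and within the first run, where FAN time-restricted has 1 library, the time-restricted change was 0.28 without a call. Xcl1, a lymphocyte product that acts on Xcr1-bearing dendritic cells, had 0.973, 0.919, 1.14 and 0.836 CPM in FAN time-restricted and 0.503, 0.287, 0.788 and 1.60 CPM in FAN ad libitum libraries, against 0.0423, 0.0354, 0.225 and 0.163 CPM in vehicle time-restricted and 0.168, 0.210, 0.240 and 0.126 CPM in vehicle ad libitum libraries. It rose by 3.13 ± 0.60 (adjusted p = 0.000426) with time-restricted and 2.03 ± 0.53 (adjusted p = 0.00299) with ad libitum feeding, without overlap in either. The ad libitum change of Xcl1 within the first run was 1.01 (adjusted p = 0.228), without a call.

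**Figure D2:**
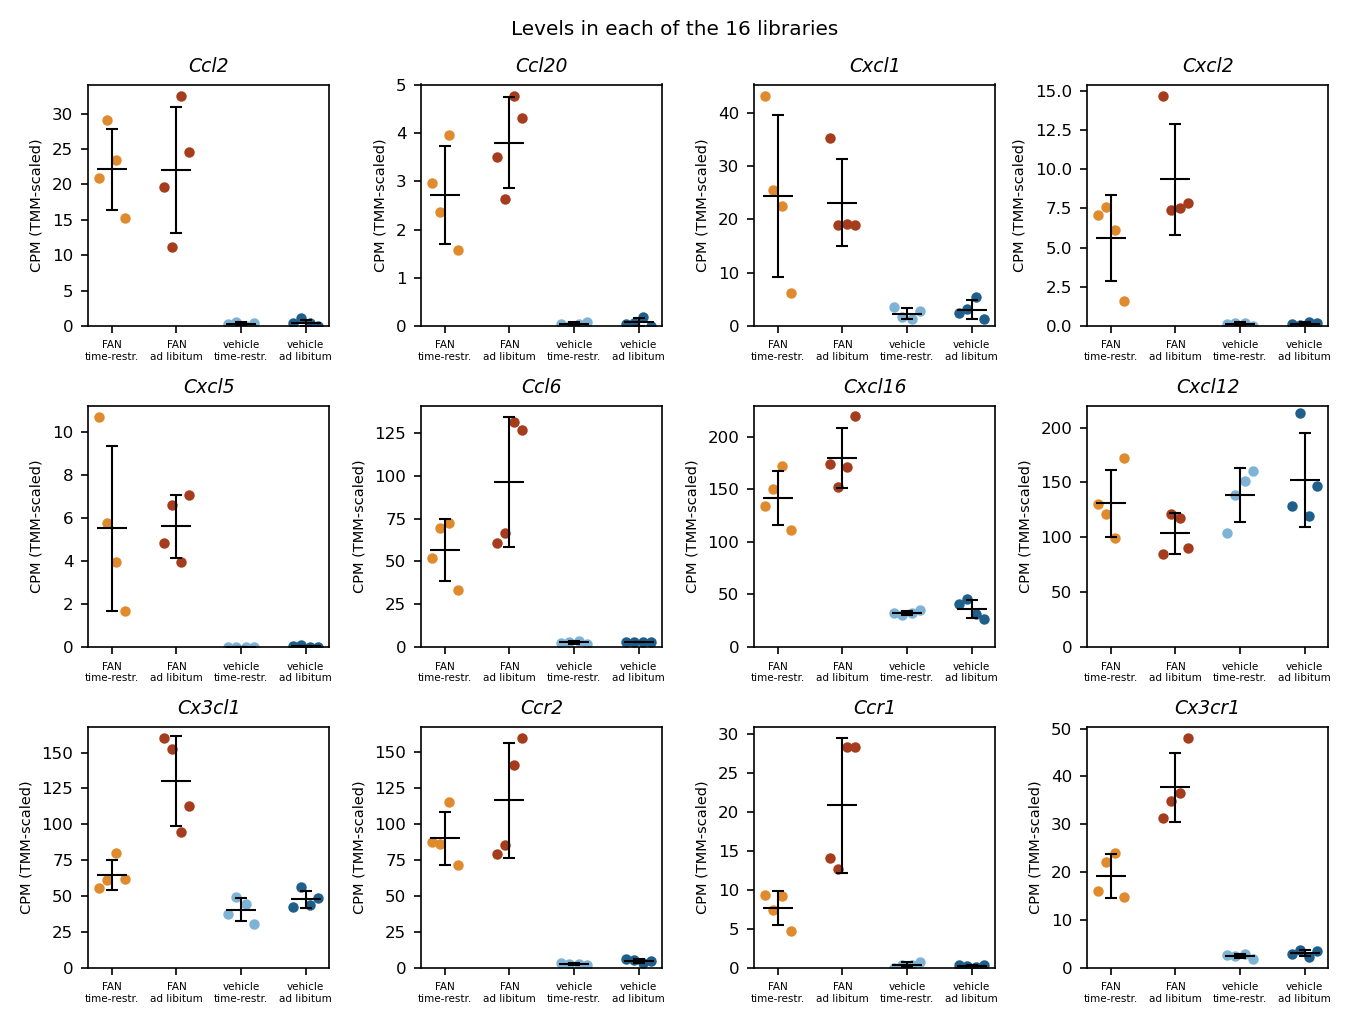
TMM-scaled CPM (y axis, linear from 0) of 12 members in each library, with 4 points for each group on the x axis and a bar for the mean ± SD. FAN groups lie above the vehicle group of their own regimen for all but Cxcl12, whose 4 groups overlap and whose ad libitum change turns from −0.56 to 0.14 with library size as the only scaling, and Ccr1, Cx3cr1 and Cx3cl1 are lower in FAN time-restricted than in FAN ad libitum libraries.

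Of the 10 CC receptors 6 were tested, and all 6 were higher in FAN kidneys with ad libitum and 5 with time-restricted feeding. Over all genes 32.1% and 24.5% were higher. Ccr1, Ccr4 and Ccr7 did not pass the count filter in vehicle libraries alone. Ccr2, the receptor of inflammatory monocytes, had 87.5, 85.6, 115 and 71.0 CPM in FAN time-restricted and 78.9, 85.2, 141 and 159 CPM in FAN ad libitum libraries. It had 3.26, 2.91, 2.47 and 2.20 CPM in vehicle time-restricted and 6.42, 5.68, 3.26 and 4.79 CPM in vehicle ad libitum libraries, without overlap between treatments. The log2 change was 5.03 ± 0.27 (adjusted p = 2.54e-09) with time-restricted and 4.51 ± 0.26 (adjusted p = 3.14e-10) with ad libitum feeding, or 4.76 and 3.72 within the first run. Ccr1, a receptor of monocytes and neutrophils, had 9.38, 7.48, 9.27 and 4.74 CPM in FAN time-restricted and 14.1, 12.7, 28.4 and 28.3 CPM in FAN ad libitum libraries, against 0.0423, 0.390, 0.405 and 0.815 CPM in vehicle time-restricted and 0.336, 0.280, 0.144 and 0.315 CPM in vehicle ad libitum libraries. FAN ad libitum 10 and 12 had about the same level as each other and more than 6 and 7, and the lowest FAN library of all was still above every vehicle library. Its log2 change was 4.38 ± 0.45 (adjusted p = 7.95e-07) with time-restricted and 6.24 ± 0.47 (adjusted p = 4.75e-09) with ad libitum feeding, or 5.27 and 5.38 within the first run.

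Ccr7, which guides dendritic cells and T cells to lymph nodes, had 1.52, 1.40, 2.004 and 0.929 CPM in FAN time-restricted and 3.39, 3.30, 3.86 and 3.30 CPM in FAN ad libitum libraries, against 0.0847, 0.142, 0.315 and 0.0815 CPM in vehicle time-restricted and 0.504, 0.280, 0.575 and 0.189 CPM in vehicle ad libitum libraries. Its log2 change was 3.17 ± 0.41 (adjusted p = 7.11e-06) with time-restricted and 3.12 ± 0.34 (adjusted p = 3.89e-07) with ad libitum feeding, without overlap. Ccr4, a T cell receptor for Ccl17 and Ccl22, rose from very few counts, with 21 counts in FAN against 1 in vehicle time-restricted kidneys, a ratio of 21.4 (95% counting interval 3.44 to 885), and its ad libitum change was 2.68 over all libraries and 2.03 within the first run (adjusted p = 0.101). Ccr9, the Ccl25 receptor, rose by 2.21 ± 0.56 (adjusted p = 0.00231) with ad libitum feeding and was not called with time-restricted feeding, at 0.64 ± 0.56 (adjusted p = 0.373). Its ad libitum call was lost within the first run, at 1.82 (adjusted p = 0.0733).

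Of the 8 CXC, CX3C and XC receptors 6 were tested, and all 6 were higher under both regimens. Over all genes 32.1% were higher with ad libitum and 24.5% with time-restricted feeding. Cxcr2 and Cxcr3 did not pass the count filter in vehicle libraries alone. Cx3cr1, the fractalkine receptor of resident and patrolling mononuclear cells, had 15.99, 22.2, 24.0 and 14.8 CPM in FAN time-restricted and 31.4, 34.8, 36.5 and 48.1 CPM in FAN ad libitum libraries. It had 2.79, 2.45, 2.88 and 1.96 CPM in vehicle time-restricted and 2.92, 3.82, 2.25 and 3.47 CPM in vehicle ad libitum libraries. Every FAN library exceeded every vehicle library, and the log2 change was 2.92 ± 0.21 (adjusted p = 1.32e-08) with time-restricted and 3.59 ± 0.21 (adjusted p = 2.54e-10) with ad libitum feeding. Cxcr4, the Cxcl12 receptor, had 8.95, 11.7, 15.3 and 5.67 CPM in FAN time-restricted and 8.99, 6.79, 8.32 and 8.92 CPM in FAN ad libitum libraries, against 2.29, 2.23, 2.79 and 3.10 CPM in vehicle time-restricted and 4.20, 2.49, 2.16 and 2.27 CPM in vehicle ad libitum libraries. It rose by 2.02 ± 0.27 (adjusted p = 1.28e-05) with time-restricted and 1.55 ± 0.27 (adjusted p = 6.35e-05) with ad libitum feeding. Cxcr6, found on T and NK cells, had 2.76, 4.33, 5.15 and 3.72 CPM in FAN time-restricted and 1.95, 2.63, 3.98 and 2.89 CPM in FAN ad libitum libraries, against 0.423, 0.390, 0.540 and 0.570 CPM in vehicle time-restricted and 1.01, 0.981, 0.719 and 0.315 CPM in vehicle ad libitum libraries. Its log2 change was 3.07 ± 0.34 (adjusted p = 1.46e-06) with time-restricted and 1.86 ± 0.31 (adjusted p = 5.12e-05) with ad libitum feeding, the second at 1.16 within the first run, and neither gene overlapped between treatments.

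Cxcr2, the neutrophil receptor of Cxcl1, Cxcl2, Cxcl3 and Cxcl5, stayed under 1.6 CPM. It had 59 counts in FAN and 2 in vehicle time-restricted kidneys, a ratio of 30.0 (95% counting interval 7.96 to 254), with none in FAN time-restricted 12. Its ad libitum log2 change was 3.67 ± 0.75 (adjusted p = 0.000351). Cxcr3, carried by activated T cells, and Xcr1, which marks cross-presenting dendritic cells, rose by 2.84 and 2.85 with time-restricted and by 2.40 and 2.42 with ad libitum feeding. Cxcr3 lost its time-restricted call within the first run, at 1.39 (adjusted p = 0.0878), and Xcr1 lost its ad libitum call there, at 1.54 (adjusted p = 0.0647).

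Of the 3 tested atypical receptors, 1 was higher in FAN kidneys with time-restricted feeding and none with ad libitum feeding. Ackr3, which scavenges Cxcl12, had 43.7, 52.5, 49.3 and 69.3 CPM in FAN time-restricted and 43.9, 34.8, 54.6 and 43.4 CPM in FAN ad libitum libraries. It had 30.4, 35.1, 57.0 and 50.3 CPM in vehicle time-restricted and 45.5, 52.9, 39.1 and 63.1 CPM in vehicle ad libitum libraries, with all groups overlapping. Its log2 change was 0.31 ± 0.20 (adjusted p = 0.226) with time-restricted and −0.18 ± 0.20 (adjusted p = 0.450) with ad libitum feeding, and with library size as the only scaling the second turned to 0.51. Ackr4, a scavenger of Ccl19, Ccl21 and Ccl25, had 0.856, 0.919, 0.786 and 0.465 CPM in FAN time-restricted and 0.586, 0.431, 0.394 and 0.438 CPM in FAN ad libitum libraries, against 0.550, 0.248, 0.585 and 0.326 CPM in vehicle time-restricted and 1.04, 0.421, 0.959 and 0.883 CPM in vehicle ad libitum libraries. The groups overlapped, at 0.84 ± 0.38 (adjusted p = 0.0815) with time-restricted and −0.81 ± 0.35 (adjusted p = 0.0550) with ad libitum feeding. Ackr2, which degrades inflammatory CC ligands, had 0.467, 0.175, 0.393 and 0.0929 CPM in FAN time-restricted and 0.712, 0.431, 0.394 and 0.490 CPM in FAN ad libitum libraries, against 0.0423, 0.142, 0.0450 and 0.0815 CPM in vehicle time-restricted and 0.336, 0.421, 0.192 and 0.0631 CPM in vehicle ad libitum libraries. It was called higher with time-restricted feeding, at 1.86 ± 0.64 (adjusted p = 0.0257), a call lost without FAN time-restricted 6 or 11 or vehicle time-restricted 1 or 3 with the S-number run as a covariate and within the first run (2.18, adjusted p = 0.106), and was not called with ad libitum feeding, at 0.91 ± 0.48 (adjusted p = 0.109).

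A list of 40 ligand and receptor pairs known to bind each other had 30 pairs with both genes tested. Both genes were higher in FAN kidneys in 22 pairs with time-restricted and 23 with ad libitum feeding. Of the 47 tested members, 36 and 37 were higher in these contrasts, so most pairs drawn from them would hold higher genes only. The pair counts therefore add no support to the calls of single genes. The pairs that did not rise together included Cxcl12 with Cxcr4, where the receptor rose and the ligand did not, and Ccl25 with Ccr9, where the ligand was lower in both contrasts, a fall that turned to 0.17 under library size alone with ad libitum feeding and was not called within the first run with time-restricted feeding. Ccl20 rose while its receptor Ccr6, with at most 17 counts in any library, was not tested. Genes that appear in several pairs make these counts dependent.

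Summed over all 61 members, chemokine and receptor transcripts came to 902 ± 90.6 CPM in FAN time-restricted and 1134 ± 169 CPM in FAN ad libitum libraries, against 382 ± 39.1 CPM in vehicle time-restricted and 387 ± 75.3 CPM in vehicle ad libitum libraries (mean ± SD, n = 4 each). Receptors alone came to 223 ± 32.8 and 293 ± 70.9 CPM in FAN time-restricted and FAN ad libitum libraries, and 55.9 ± 13.0 and 67.4 ± 11.4 CPM in vehicle time-restricted and vehicle ad libitum libraries. The make-up of the sums differed. Cxcl12 gave 19.3% of the ligand sum in FAN time-restricted and 12.3% in FAN ad libitum kidneys, against 42.6% in vehicle time-restricted and 47.6% in vehicle ad libitum kidneys. Ackr3 gave 24.0% of the receptor sum in FAN time-restricted and 15.1% in FAN ad libitum kidneys, against 77.3% in vehicle time-restricted and 74.4% in vehicle ad libitum kidneys. Ccr2 gave 40.2% and 39.6% of it in FAN time-restricted and FAN ad libitum kidneys, against 4.85% and 7.47% in vehicle time-restricted and vehicle ad libitum kidneys.

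The shares of the sums above are of CPM and so depend on transcript length. Genes were ranked by level per kilobase of the transcript length given in the table, a single length per gene that ranges down to 167 bases for Ackr1. On that scale the highest ligand was Cxcl12 at 69.6 CPM per kilobase in FAN time-restricted kidneys and Ccl6 at 67.0 in FAN ad libitum kidneys, followed closely by Cxcl16 at 66.6. In vehicle kidneys it was Cxcl12, at 73.9 with time-restricted and 81.0 with ad libitum feeding, ahead of Ccl27a at 30.9 and 31.8 CPM per kilobase. The highest receptor was Ccr2 in FAN kidneys, at 39.6 and 51.3 CPM per kilobase with time-restricted and ad libitum feeding, and Ackr3 in vehicle kidneys, at 14.1 and 16.4.

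**Figure D3:**
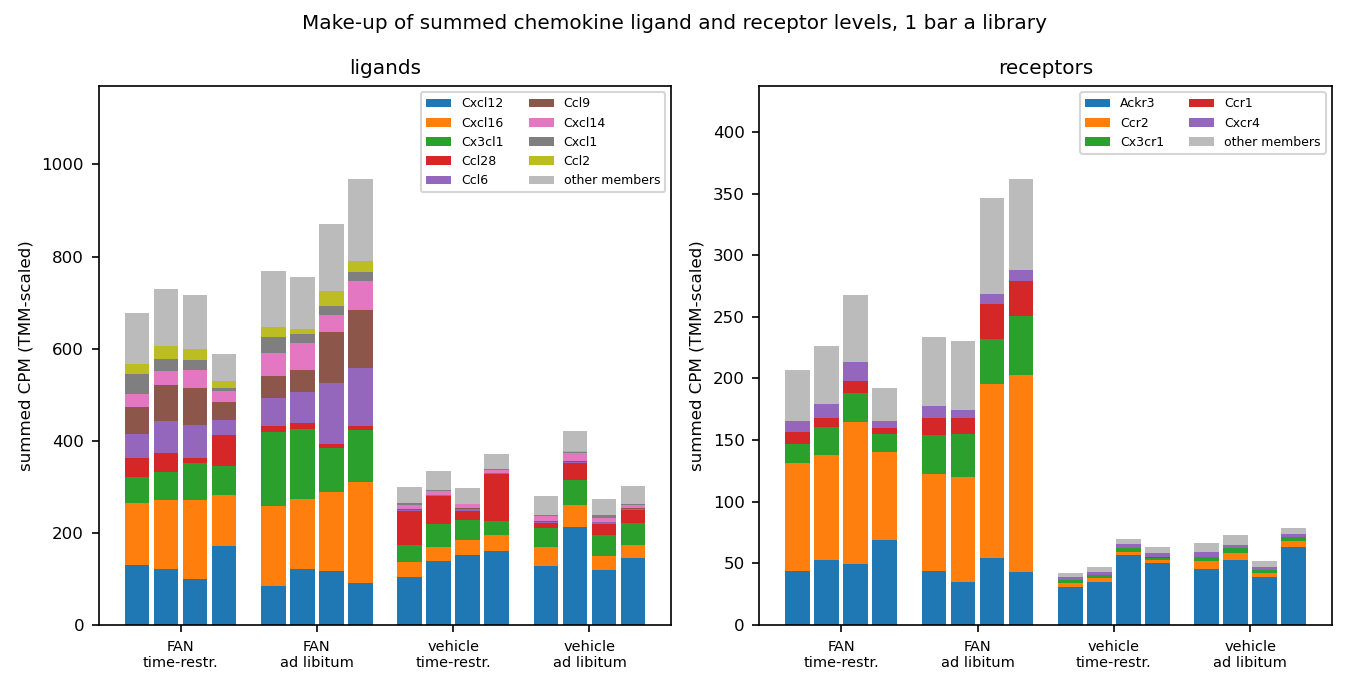
Stacked TMM-scaled CPM (y axis, from 0) of the ligands (left) and receptors (right) in each of the 16 libraries (1 bar each, FAN groups left of vehicle groups), with members of high level in colour and all others in grey. The FAN bars are taller with larger Cxcl16, Ccl6 and Ccr2 segments, while the Cxcl12 and Ackr3 segments overlap between groups (84.8 to 214 and 30.4 to 69.3 CPM over all libraries).

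Time-restricted feeding went with lower levels of 11 of the 47 tested members in FAN kidneys, a higher level of 1, Ccl28, and no call for 35. Over all genes 13.9% were lower and 17.9% higher in this contrast (31.8% in all), and the median log2 change was −0.38 for the members and −0.02 for all genes. In FAN kidneys 33 of the 47 members had a log2 change below 0, and in vehicle kidneys, where none was called, 40 did, with a median of −0.47 against −0.01 for all genes. Within the third run 4 members were called lower in FAN kidneys, where 2129 of 17446 genes were called, 1721 of them higher. Described here are Ccr1, Ccr7 and Cx3cr1 among receptors and Ccl3, Ccl4, Ccl6, Ccl8, Ccl22, Cx3cl1 and Cxcl14 among ligands, and each of the 11 was also higher in FAN than in vehicle kidneys with ad libitum feeding, a contrast that shares the FAN ad libitum libraries. The FAN time-restricted and FAN ad libitum libraries did not overlap for 8 members, all lower and 1 of them (Ccl24) not called, against 12.3% of all genes lower and 15.7% higher. Among the 26 members that passed the filter in vehicle libraries alone, 6 were lower, 1 was higher and 19 were not called, again without a matched share of all genes. With library size as the only scaling, which moved the median of all genes to −0.67, 26 members were lower and none higher. That scaling called 11502 of all 17731 genes, only 990 of them higher. With mitochondrial transcripts left out of the scaling 12 members were lower and 1 higher, where 5695 of 17657 genes were called, 3086 of them higher.

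Cx3cl1 and its receptor Cx3cr1 had the smallest adjusted p-values among the members. Cx3cl1 was lower, at −1.01 ± 0.18 (adjusted p = 0.000346), with every FAN time-restricted library, at 80.1 CPM or less, below every FAN ad libitum library, at 94.97 CPM or more. Cx3cr1 was lower, at −0.97 ± 0.18 (adjusted p = 0.000666), at 24.0 CPM or less against 31.4 CPM or more. Within the first run their log2 changes were −1.52 and −1.08, and within the third run −0.61 and −1.04, each called in both runs. In the first run FAN time-restricted has 1 library, which the fit takes to vary like the other groups.

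Ccr1 was lower, at −1.42 ± 0.34 (adjusted p = 0.00421), with FAN time-restricted libraries at 9.38 CPM or less and FAN ad libitum libraries at 12.7 CPM or more. Its change was −0.54 within the first run, without a call, and −1.95 within the third. Ccl3, its ligand, was lower, at −1.39 ± 0.34 (adjusted p = 0.00430), with −1.88 within the first and −1.11 within the third run, called in the first only. Ccr7 was lower, at −1.21 ± 0.30 (adjusted p = 0.00555), with −1.17 and −1.25 in the 2 runs and a call in neither. Cxcl14 was lower, at −0.79 ± 0.22 (adjusted p = 0.0118), with FAN time-restricted 11 at 38.2 CPM overlapping FAN ad libitum 10 at 38.0 CPM, and it was −0.92 (adjusted p = 0.0527) within the first and −0.73 (adjusted p = 0.122) within the third run, called in neither. These 6 members, Cx3cl1, Cx3cr1, Ccr1, Ccl3, Ccr7 and Cxcl14, stayed called whichever FAN library was left out.

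Calls of 5 others described here were lost when single libraries were left out. Without FAN time-restricted 12, the shallowest library, 6 members were called lower in place of 11 and none higher. Calls over all genes fell too, to 4646 of 18180 genes, 2811 of them higher, from 5639 of 17731, 3180 of them higher. Ccl6 was lower, at −0.76 ± 0.26 (adjusted p = 0.0342) and Ccl4 at −1.36 ± 0.45 (adjusted p = 0.0266). Ccl8 and Ccl22 were lower, at log2 changes of −1.31 and −1.47. These 4 ligands lost their calls in 4 or 5 of the 8 fits that leave out 1 library, Ccl6 without FAN ad libitum 10 or 12 or FAN time-restricted 6 or 12, Ccl8 without these or FAN time-restricted 11, Ccl4 without FAN ad libitum 6 or 12 or FAN time-restricted 6, 10 or 12, and Ccl22 without FAN ad libitum 6 or 7 or FAN time-restricted 6, 10 or 12. For Ccl6 the change was −0.31 within the first and −1.13 within the third run, called in the third only. Ccl8 gave −0.40 (adjusted p = 0.498) and −1.86 (adjusted p = 0.0508) in these runs and Ccl4 −1.12 and −1.52, each called in neither. Ccl22 gave −1.95 and −0.95, called in the first only.

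Ccl28 had 42.1, 39.9, 11.1 and 68.1 CPM in FAN time-restricted libraries, against 12.4, 12.6, 9.78 and 7.71 CPM in FAN ad libitum libraries. FAN time-restricted 11 lay within the FAN ad libitum range and the other 3 well above it, and the log2 change was 1.91 ± 0.55 (adjusted p = 0.0174). This call was lost without FAN time-restricted 12 (adjusted p 0.00366 to 0.0548 over the 8 fits), and the change was 1.72 within the first and 2.18 within the third run, without a call in either. In vehicle kidneys Ccl28 had 72.8, 59.97, 19.7 and 101.8 CPM with time-restricted and 9.51, 35.6, 25.6 and 26.7 CPM with ad libitum feeding, an uncalled log2 change of 1.38 ± 0.54 (adjusted p = 0.704). Without FAN ad libitum 12, Cxcl9 was called higher as well, as it was within the first run, at 0.999 (adjusted p = 0.0225), but not within the third, at 0.03 (adjusted p = 0.976).

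Several members with large rises in FAN kidneys were not called for feeding. Ccl2 averaged 22.2 ± 5.73 CPM in FAN time-restricted and 22.0 ± 8.92 CPM in FAN ad libitum libraries, a log2 change of 0.02 ± 0.41 (adjusted p = 0.976). Cxcl5 gave 0.00 ± 0.41 (adjusted p = 0.999), Ccl20 −0.45 ± 0.33 (adjusted p = 0.314) and Cxcl2 −0.72 ± 0.37 (adjusted p = 0.152). Ccr2, at −0.37 ± 0.22 (adjusted p = 0.215), and Cxcl16, at −0.34 ± 0.16 (adjusted p = 0.123), did not pass either. Missing the threshold does not show that the regimens gave equal levels, since the standard errors of these changes reach 0.41. Of the 30 ligand and receptor pairs with both genes tested, 5 had both genes lower in FAN time-restricted than in FAN ad libitum kidneys. Among them were Cx3cl1 with Cx3cr1 and Ccl3 with Ccr1. This count also follows from the calls of single genes, some of which appear in several pairs.

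**Figure D4:**
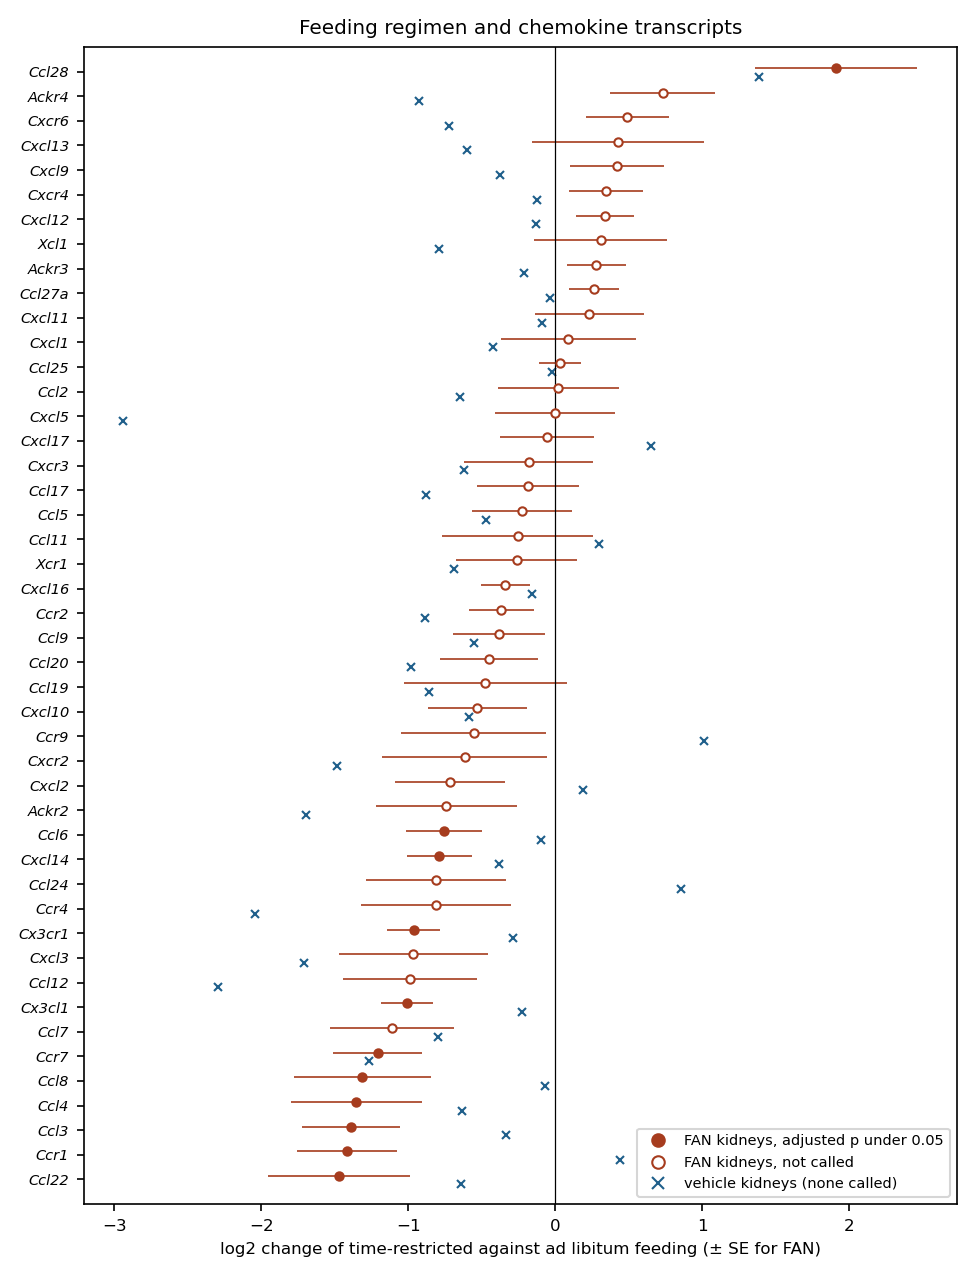
Log2 change of time-restricted against ad libitum feeding (x axis) for the tested members described here (y axis, ordered by the change in FAN kidneys), with red circles ± SE for FAN kidneys, filled where the adjusted p was under 0.05, and blue crosses for vehicle kidneys. Filled circles lie left of 0 for 10 members and right of it for Ccl28 (1.91), and no vehicle change was called. With library size as the only scaling the FAN changes shift left, 26 members are called lower and uncalled positive changes such as that of Cxcl12 turn negative (−0.32). The shift covers genes in general, since that scaling calls 11502 of 17731 genes, only 990 of them higher.

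Macrophage and scar cell markers moved in this contrast too. Of the 14 macrophage and monocyte markers, 10 were lower in FAN time-restricted than in FAN ad libitum kidneys and none was higher, with summed levels of 979 to 1948 CPM in FAN time-restricted and 2009 to 3073 CPM in FAN ad libitum libraries. Of the 10 myofibroblast and pericyte markers, 7 were lower, with sums of 598 to 1209 CPM in FAN time-restricted and 1123 to 2127 CPM in FAN ad libitum libraries. Of the 14 tested T and NK cell markers, 1 was lower, with sums of 32.5 to 54.3 CPM in FAN time-restricted and 33.2 to 54.4 CPM in FAN ad libitum libraries. Among 7 tested B and plasma cell markers, 1 was higher and 0 were lower. Of the 10 proximal tubule markers, 8 were higher in FAN time-restricted than in FAN ad libitum kidneys. No marker of these lists was at 0 throughout. The part of these cells in the lower chemokine levels was not tested.

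In vehicle kidneys no member was called for feeding by edgeR, as was the case for all 17731 genes (0%), and DESeq2 called no member and 58 genes. The log2 changes of 40 of the 47 members were below 0 in vehicle kidneys, with a median of −0.47. At an unadjusted p under 0.05 edgeR listed 6 members, Ackr2, Ackr4, Ccl12, Ccl28, Ccr2 and Ccr7. The interaction, which tests whether the FAN change differed between the regimens, called no member at an adjusted p under 0.05, with a median log2 value of 0.32 against 0.02 for all genes, where 9.16% of all genes were called (7.76% above 0 and 1.4% below 0), and 5 members had an unadjusted p under 0.05. The smallest adjusted p-values were those of Ackr4, at 1.66 ± 0.52 (adjusted p = 0.0534), and Cx3cl1, at −0.78 ± 0.25 (adjusted p = 0.0581). With single libraries left out edgeR called Ackr4 above 0 without FAN time-restricted 12 or vehicle ad libitum 2, Cxcr6 above 0 without vehicle ad libitum 4, Ccr1 below 0 without vehicle time-restricted 1, and Cx3cl1 below 0 without FAN ad libitum 10 or 12, FAN time-restricted 11, vehicle ad libitum 2 or vehicle time-restricted 4. Within the first run edgeR called Cxcl9 (1.43) and Ccr2 (1.04) above 0 and Cx3cl1 (−1.36) below it. DESeq2 called 3 members, Ackr4 with an interaction above 0 and Ccr1 and Cx3cl1 below it, where it called 2175 genes, 1586 of them above 0. A different FAN change under the 2 regimens was therefore not shown by the main edgeR fit, with TMM scaling over all libraries, for any member, also for those called under 1 regimen only. With library size as the only scaling edgeR called members below 0, among them Cx3cl1, at −1.385 (adjusted p = 0.0030). That scaling called 6631 of all genes, only 504 of them above 0. DESeq2 size factors in edgeR also called a member below 0.

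Genes around the chemokine system moved in the same contrasts, by lists chosen beside the members. Of 34 genes of chemokine receptor signalling, 26 were higher and 1 lower in FAN kidneys with time-restricted feeding and 29 were higher and 1 lower with ad libitum feeding, with median log2 changes of 0.99 and 1.72. Rgs16, which ends G protein signals, rose by 4.85 ± 0.49 (adjusted p = 5.48e-07) and 6.95 ± 0.49 (adjusted p = 2.3e-09) with time-restricted and ad libitum feeding, and Vav1, a guanine nucleotide exchange factor of blood cells, by 2.74 and 3.33. In FAN kidneys 19 of the 34 were lower with time-restricted than with ad libitum feeding and none was higher, with Rgs16 at −1.86 ± 0.34 (adjusted p = 0.000519). Of 19 tested genes of leukocyte adhesion and entry, 16 were higher with time-restricted and 14 with ad libitum feeding in FAN against vehicle kidneys, among them Vcam1, the endothelial and tubular adhesion molecule, at 5.12 and 5.04, and the integrin chain Itgam at 5.21 and 4.91. In FAN kidneys 7 of them were lower with time-restricted feeding.

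Of 25 tested genes that induce chemokine genes, 21 were higher with time-restricted and 24 with ad libitum feeding in FAN against vehicle kidneys and none was lower, and Il17a had no counts. Il33, an alarmin, rose by 3.46 and 3.35, Tlr2, an innate sensor, by 3.20 and 3.12, and Nfkbiz, an NF-kappaB cofactor, by 2.40 and 2.95 with time-restricted and ad libitum feeding. In FAN kidneys 13 of the 25 were lower with time-restricted than with ad libitum feeding, with Nfkbiz at −0.61 ± 0.17 (adjusted p = 0.0120) and Il33 not called at −0.21 ± 0.23 (adjusted p = 0.517). Of 21 genes listed for trimming or holding chemokines, among them proteases and proteoglycans, 14 were higher and 1 lower with time-restricted and 15 higher and 1 lower with ad libitum feeding in FAN kidneys. Between the regimens in FAN kidneys, 11 of the 21 were lower and 2 higher with time-restricted feeding. Mmp12, a macrophage elastase, rose by 4.21 and 5.13, and was lower in FAN time-restricted than in FAN ad libitum kidneys, at −1.33 ± 0.27 (adjusted p = 0.00147).

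The 14 members not tested had at most 27 counts in any library. Ccl21a, Ccl21b, Ccl21d, Ccl26 and Ccl27b had no counts at all, and the Ccl21 and Ccl27 genes have near-identical copies whose reads the counting may have dropped or moved, so that Ccl27a is uncertain as well. Ackr1, the Duffy receptor of red cells and venules, had 14 counts in FAN time-restricted and 79 in FAN ad libitum kidneys, against 5 in vehicle time-restricted and 1 in vehicle ad libitum kidneys, over 4 libraries each. Ccr3, the eosinophil receptor, had 6 and 11 counts in FAN time-restricted and FAN ad libitum kidneys and 0 in both vehicle groups. Ccl1, Ccr6, Ccr8, Ccr10, Cxcl15, Cxcr1 and Cxcr5 made up the rest, with Cxcr1 at 2 counts in a single vehicle library. With no count filter edgeR called Ackr1, Ccr3, Ccr8 and Cxcl15 higher in FAN kidneys with ad libitum feeding and Ccl1 and Ccr8 with time-restricted feeding. That setting called 10920 of 33582 genes with ad libitum feeding, 6001 of them higher, and 6953 with time-restricted feeding, 4111 of them higher. No vehicle library of these contrasts held more than 1 count of the genes called, so they could be called only as higher.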

How the data were processed

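RNA of 16 mouse kidneys was extracted with TRIzol from frozen powder and made into stranded mRNA libraries, per the labels' protocols. The authors deposited raw read counts of 52338 genes in a single table. The table's transcript lengths, deposited by the authors, gave the values per kilobase. The submitters' processing notes list mm10, edgeR 3.26.7, STAR 2.5.3a and FastQC 0.11.5 without saying what each did. Which counter and strand option made the counts is not given in the sources used here, so overlapping and antisense genes may share reads. Vehicle columns match sample titles. Most FAN columns carry numbers that no FAN title has, so FAN columns were assigned to a group and not to a sample.

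Symbols came from the table (71 genes had none), coordinates from GENCODE M21 by Ensembl identifier, and promoters from RefSeq. No library was a copy of another, since pairs within a group differed by a chi-square of 18.4 or more per gene. In R 4.3.3 with edgeR 4.0.16, filterByExpr with a minimum count of 10 left 17731 genes. A robust quasi-likelihood model with a mean for each of the 4 groups was fitted to the TMM-scaled counts of the 16 libraries. Adjusted p are two-sided and Benjamini-Hochberg adjusted over the genes tested, and calls need a value under 0.05. CPM are TMM-scaled, and a floor of 3 counts stands for 0. Counting intervals are exact and cover counting error only, since no molecular identifiers are named. The test was tested on simulated counts.

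Values in every library are given, by a rule, for the 3 members of highest mean CPM in each class, the 3 largest rises and falls called in each FAN contrast, and up to 8 members called each way for feeding. Other members are named by log2 change, and Cxcl1 was added after its values were seen. The values of 1 member are not reported here, and counts over all members include it. The members, lists and rule were chosen with earlier results of these data known. Alternatives were DESeq2 1.42.0 size factors, library size alone, scaling without mitochondrial transcripts, no filter, DESeq2, only the groups compared, a replicate block, the S-number run as covariate and each library left out. Fits within a run were added after seeing the data.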

Additional observations from a re-analysis of the deposited data

Results flagged for a closer look

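In 107 groups of 4 libraries of the members chosen by the rule, 3 had a library far from the others by Dixon's criterion, where chance alone flags about 1 in 20 groups. Cxcl2 was 14.7 CPM in FAN ad libitum 6 (700 counts), against 7.38 to 7.81 CPM in the other 3 libraries of that group. Ccr7 was 3.86 CPM in FAN ad libitum 10, against 3.30 to 3.39 CPM in the others. Cxcr4 was 4.20 CPM in vehicle ad libitum 1, against 2.16 to 2.49 CPM in the others.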

How the results depend on the processing

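Counts of members called higher in FAN kidneys ranged from 33 to 41 with ad libitum and from 29 to 38 with time-restricted feeding over all alternatives run. Of the values for single members, 969 kept direction and side of the threshold, 60 lost a call, 8 gained one and 5 reversed. With library size as the only scaling the median log2 change of all genes moved to 0.76 for FAN with ad libitum feeding, 0.16 for FAN with time-restricted feeding, −0.67 for feeding in FAN kidneys and −0.57 for the interaction. There Cxcl12 (0.14), Ackr3 (0.51), Ccl27a (0.16) and Ccl25 (0.17) reversed with ad libitum feeding. No member was then called lower with ad libitum feeding (0), 26 were lower and 0 higher for feeding in FAN kidneys, and 9 lower in the interaction. Over all genes that scaling called 10823 higher of 12893 with ad libitum feeding and 990 higher of 11502 for feeding in FAN kidneys, against 5691 of 10770 and 3180 of 5639. In the interaction it called 504 higher of 6631, against 1376 of 1625. Within the first run FAN against vehicle called 2 lower with ad libitum feeding, where 9442 of 19679 genes were called, 4636 of them higher. Cxcl12 reversed there with time-restricted feeding (0.034), where FAN has 1 library. Within the third run 4 were lower and 0 higher for feeding in FAN kidneys, where 2129 of 17446 genes were called, 1721 of them higher. With time-restricted feeding, a fit of only the groups compared lost Ackr2, Ccl19, Ccl24, Ccl3, Ccr4, Cxcl3 and Cxcr2 as higher. DESeq2 called 1 higher and 2 lower in the interaction, and DESeq2 size factors in edgeR 1 lower. Over all genes these called 1586 higher of 2175 and 1240 higher of 1535. With the run as a covariate Ccl27a took the place of Ccl25 as lower with time-restricted feeding.

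With 1 library left out, members lower in FAN with ad libitum feeding ranged from 2 to 5 (2 without FAN ad libitum 6, which lost Cxcl11 and Cxcl12), those higher for feeding in FAN kidneys from 0 to 2, those lower from 6 to 12, and the interaction called 0 to 1 higher and 0 to 1 lower, namely Ackr4, Cxcr6, Ccr1 or Cx3cl1. Over all genes these fits called 10176 to 10751 for FAN with ad libitum feeding, 4196 to 6314 for feeding in FAN kidneys and 1160 to 2371 in the interaction. Libraries of a treatment with the same number did not deviate together (correlations of 0.18, 0.12, −0.15 and −0.01 in vehicle and −0.13, −0.05 and −0.25 in FAN kidneys). Different numbers gave −0.28 to 0.32 in vehicle and −0.16 to 0.26 in FAN kidneys. No pairing by number was seen, and so few values cannot exclude one. The replicate block, possible for feeding only, called 12 lower and 1 higher in FAN kidneys and 0 in vehicle kidneys and the interaction. Of all 17731 genes it called 3400 in FAN kidneys, 2240 of them higher, 0 in vehicle kidneys and 877 in the interaction, 774 of them above 0. The cause of these shifts was not tested. Over 5 classes of transcript length the median log2 change of all genes ran from −0.19 in the shortest to 0.35 in the longest class for FAN with ad libitum feeding and from 0.20 to −0.21 for feeding in FAN kidneys, and 15 of the 47 members were in the shortest class.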

Other observations

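Genes related to chemokine receptors but outside the symbol rule moved as well. Of 14 such genes, 12 were higher and 1 lower in FAN kidneys with time-restricted feeding, and 11 were higher and 1 lower with ad libitum feeding. The complement C5a receptor gene C5ar1 rose by 2.78 ± 0.35 (adjusted p = 5.55e-06) with time-restricted and 4.09 ± 0.34 (adjusted p = 1.51e-08) with ad libitum feeding, and C5ar2 by 5.03 and 4.58. Cmklr1, the chemerin receptor of macrophages and dendritic cells, rose by 1.51 ± 0.25 (adjusted p = 9.74e-05) with time-restricted and 2.32 ± 0.24 (adjusted p = 1.83e-07) with ad libitum feeding. In FAN kidneys 5 of the 14 were lower and 1 higher with time-restricted than with ad libitum feeding, with C5ar1 at −1.44 ± 0.29 (adjusted p = 0.00126) and Cmklr1 at −1.42 ± 0.23 (adjusted p = 0.000176). Dendritic cell markers summed to 43.7 to 67.4 CPM in FAN time-restricted and 72.0 to 85.4 CPM in FAN ad libitum libraries, against 11.1 to 15.7 CPM in vehicle time-restricted and 13.7 to 22.7 CPM in vehicle ad libitum libraries, and 2 of 7 were lower in FAN kidneys with time-restricted feeding. Endothelial markers summed to 297 to 487 CPM in FAN time-restricted and 327 to 392 CPM in FAN ad libitum libraries, against 202 to 294 CPM in vehicle time-restricted and 272 to 412 CPM in vehicle ad libitum libraries, with none of 10 called for feeding in FAN kidneys.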
